A study of Mus musculus with 12 samples.

Results

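Slfn5, Cd274, Acod1, Ifi209, Ifi207, Gbp3 and Bst2 are interferon-induced effector genes that had at least 1 peak of N4-acetylcytidine (ac4C) RNA in mouse peritoneal macrophages. They are 7 of the 2107 genes overlapped by a peak in any of the 6 deposited peak lists, and they were chosen by that peak, so its presence is a description and is not tested. ac4C is a cytidine that carries an acetyl group, placed on RNA by NAT10. Peritoneal macrophages, the phagocytes of the abdominal cavity, were cultured with interferon-γ (IFN-γ) for 0, 24 or 48 h, and RNA pulled down for ac4C was sequenced (RIP-seq) beside total RNA, with 2 samples in each of the 6 groups. Each time has 2 lists, called list 1 and list 2, with no order between them and no statement of which sample each came from. The labels give no culture kept without IFN-γ for 24 or 48 h, so IFN-γ and hours in culture cannot be told apart. Strain, sex, age and the number of animals are not given, and whether both samples of a group are from different animals or cultures is not stated.

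IFN-γ binds its receptor at the cell surface and turns on the kinases JAK1 and JAK2, which leads to the transcription of target genes. Promoters of interferon-induced genes often hold short elements named GAS and ISRE, the first known for IFN-γ and the second for type I interferons. The genes induced in macrophages include GTPases that attack pathogens inside the cell, sensors of foreign DNA, proteins that stop viruses, enzymes that change metabolism and ligands that restrain T cells.

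The promoters of the 7 genes show these elements unevenly. RefSeq promoters (build GRCm38.p6, 250 bases before the gene start to 50 after it) were found for all 7. The ISRE core was searched on both strands as a pair of GAAA motifs with any 2 bases between them. It was in a promoter of 4 of the 7 genes and in 3.44% of all 32851 promoters in the table. The count is by gene and the share by promoter, and Gbp3 has a further promoter without a match. The GAS letters, TTCNNNGAA, were in 1 of the 7, Bst2, where they overlap an ISRE core, and in 8.30% of all promoters. The stretches below are 30 bases each around the match to the ISRE core in those 4 genes. Cd274, Acod1 and Ifi209 have no match in this window. The stretches run 5′ to 3′ on the strand of the gene, with the match in capitals. In Slfn5 the match runs into a stretch of A bases.
Slfn5 (chr11:82951937-82951966, plus strand): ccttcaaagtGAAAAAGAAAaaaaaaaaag
Ifi207 (chr1:173741831-173741860, minus strand): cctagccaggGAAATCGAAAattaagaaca
Gbp3 (chr3:142559992-142560021, plus strand): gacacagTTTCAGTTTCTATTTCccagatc
Bst2 (chr8:71537580-71537609, minus strand): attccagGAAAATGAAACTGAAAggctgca
Gbp3 and Bst2 each held 2 overlapping matches, in Gbp3 on the strand opposite to the gene. In Ifi207 and Gbp3 the matches began 41 and 45 bases before the annotated start, in Bst2 and Slfn5 130 and 155 bases before it. A match of letters is not a bound site, and the stretches lie outside the RNA peaks described below.

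The 7 genes had 12 peaks in all, in 7 places, 1 place per gene. At 0 h only Cd274 had a peak, in both lists, as did 20.5% of all genes. The 24 h lists held 3 and 3 of the 7 genes, the 48 h lists 3 and 1. The means were 1.00, 3.00 and 2.00 genes per list at 0, 24 and 48 h (SD 0 at 0 h and at 24 h and 1.41 at 48 h, n = 2 lists each). Among all 2107 genes, the 0 h lists held 45.2% and 39.7%, the 24 h lists 29.7% and 27.1%, and the 48 h lists 28.9% and 25.4%. Among the 7, 6 had peaks in later lists and in neither 0 h list, a pattern of 35.5% of all genes. A peak in 1 later list and nowhere else was the pattern of 5 of the 7, against 27.4% of all genes. Because the 7 genes were picked for having a peak, these shares were not tested.

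**Figure D1:**
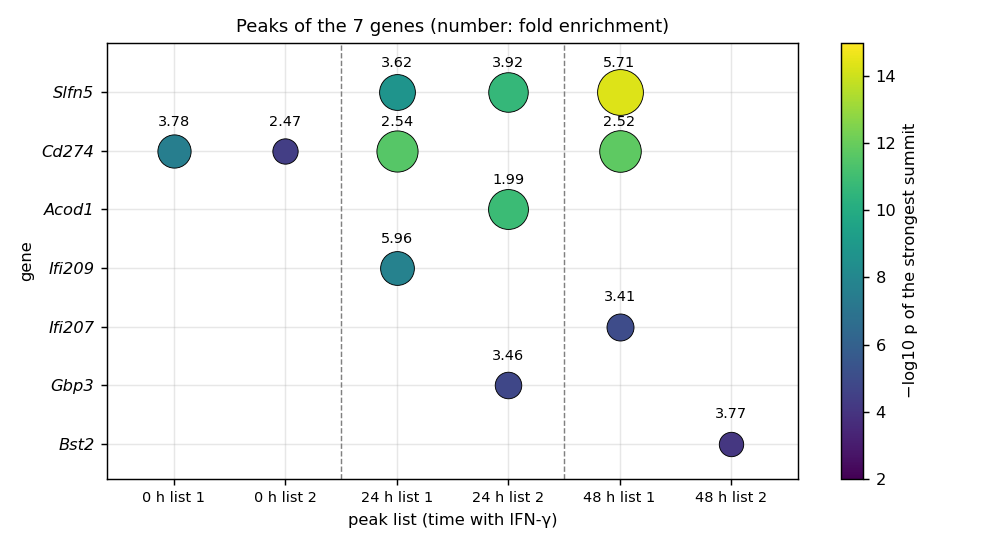
Peaks of the 7 genes (rows) in the 6 lists (columns, in order of time). Circle size and colour give the −log10 p of the strongest summit and the number above it gives the authors' fold enrichment. Only Cd274 has circles at 0 h, Slfn5 has 3 circles at 24 h and 48 h, and the other 5 genes have 1 each.

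Most of these genes were seen once. A peak in exactly 1 list was found for 5 of the 7 genes, against 52.9% of all genes with a peak. Slfn5 had a peak in 3 lists and Cd274 in 4, and 24.8% of all genes had one in 3 lists or more and 13.3% in 4 or more. At 0 h the 1 gene found, Cd274, was in both lists, beside 31.8% of all genes found at 0 h. Of the 5 genes found at 24 h, 1, Slfn5, was in both 24 h lists, beside 23.5% of all genes found at 24 h. Of the 4 found at 48 h, 0 were in both 48 h lists, beside 22.4% of all genes found at 48 h. Genes without a peak at 0 h that were in both 24 h lists made up 2.47% of all genes, with Slfn5 as the 1 member, and those in both 48 h lists 2.42%, with none of the 7. The times at which peaks were present rest on single lists for Acod1, Ifi209, Ifi207, Gbp3 and Bst2.

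Depth differed between the lists. The fold enrichment and p of each summit, as the authors deposited them, gave back the number of pull-down fragments at the summit and the input coverage it was tested against, for 100% of summits within 0.005 of −log10 p. A single number of fragments matched for 81.7% to 91.2% of the summits of a list, and for every summit of the 7 genes. Input coverage is the background coverage that the peak caller used, from a library that the labels and headers do not name. The lowest input coverage of a list, taken as its depth, was 100% and 91.4% of the deepest list for the 0 h lists, 73.7% and 80.8% for the 24 h lists, and 57.2% and 44.6% for the 48 h lists. By pull-down the 0 h lists had 91.5% and 78.1% of the depth of the deepest list, the 24 h lists 100% and 97.9%, and the 48 h lists 77.9% and 68.6%. Whether depth bears on the lists in which a gene had no peak was not tested. Of 12 macrophage markers, 3 had a peak: Ptprc in 6 lists, Itgam in 2 and Lyz2 in 1. Ptprc is also expressed by other leukocytes. Adgre1, Csf1r, Cd14, Cd68, Fcgr1, Mertk, Icam2, Gata6 and Tyrobp had none. Of 25 markers of other peritoneal or blood cells 1 had a peak, the mesothelial gene Wt1. Of all protein-coding genes 8.14% had one. A peak list gives no transcript level, so the cell type cannot be checked from these files.

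Slfn5 (ENSMUSG00000054404), a member of the Schlafen family of interferon-induced growth regulators, had the strongest peak of the group and the only one seen in both lists of a later time. Its peak lay in the 3′ UTR and overlapped no other annotated gene. In 24 h list 1 it spanned chromosome 11, 82855400 to 82855651 (GRCm39), and had a fold enrichment of 3.62 with a −log10 p of 8.74. In 24 h list 2 it spanned 82855426 to 82855649, with a fold of 3.92 and a −log10 p of 10.7. In 48 h list 1 it spanned 82855371 to 82855615, with a fold of 5.71 and a −log10 p of 14.3, the highest −log10 p of the 12 member peaks. Neither 0 h list and not 48 h list 2 held it.

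The 3 Slfn5 peaks marked the same place. They shared 189 bases, and the overlap of each pair was 84.8% to 100% of the shorter peak. Their summits lay within 22 bases of each other. Of all 2808 merged regions, 16.5% had a peak in 3 lists or more. The summits rested on 95 (95% Poisson interval 76.9 to 116), 92 (74.2 to 113) and 94 (76.0 to 115) pull-down fragments in 24 h list 1, 24 h list 2 and 48 h list 1, over input coverages of 7.00, 7.00 and 4.00. These intervals cover counting error only. Relative to the lowest input coverage of its list, the input at the summit was 11.6 and 10.6 at 24 h and 8.57 at 48 h. A missing peak does not separate a lower enrichment from too little Slfn5 RNA to test, since the lists give neither level below their threshold.

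Slfn5 ranked high within each list that held it, at position 128 of 725, 80 of 646 and 57 of 674 by p. The other 3 protein-coding genes with a peak in exactly these 3 lists were Nfkbiz, Smc6 and Ppfia1. Nfkbiz, a nuclear regulator of NF-κB, was nearest, at 10.2 percentile points over the 3 lists, with 3′ UTR peaks at folds of 4.45, 3.74 and 3.90. Smc6, a subunit of a chromosome maintenance complex, and Ppfia1 lay at 64.4 and 117 percentile points.

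Cd274 (ENSMUSG00000016496) encodes PD-L1, the ligand of the inhibitory receptor PD-1 on T cells, and was the 1 gene of the group with peaks at 0 h. All of its peaks lay in the 3′ UTR, on chromosome 19. They spanned 29364130 to 29364644 in 0 h list 1, 29364159 to 29364493 in 0 h list 2, 29364089 to 29364629 in 24 h list 1 and 29364101 to 29364656 in 48 h list 1. All 4 shared 334 bases, and the overlap of each pair was 97.1% to 100% of the shorter peak. Of all merged regions, 8.44% had a peak in 4 lists or more. The strongest summits had folds of 3.78 and 2.47 at 0 h, 2.54 in 24 h list 1 and 2.52 in 48 h list 1. Their −log10 p was 7.53 and 4.37 in the 0 h lists, 11.6 in 24 h list 1 and 11.8 in 48 h list 1. The strongest summit was the right one of the region at 0 h and the left one in the later lists, so these values compare different positions. The left summit had folds of 2.53 in 0 h list 1, 2.54 in 24 h list 1 and 2.52 in 48 h list 1. The right summit had folds of 3.78 and 2.47 at 0 h, 2.17 in 24 h list 1 and 2.65 in 48 h list 1. Its −log10 p in 24 h list 1, 6.79, was below that of 0 h list 1.

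The strongest Cd274 summit held more fragments in the later lists, though at another position than at 0 h. The strongest summits held 47 (95% Poisson interval 34.5 to 62.5) and 43 (31.1 to 57.9) pull-down fragments at 0 h, 231 (202 to 263) in 24 h list 1 and 243 (213 to 276) in 48 h list 1. Input coverage there was 4.70 and 7.56 in the 0 h lists, 26.2 in 24 h list 1 and 27.7 in 48 h list 1. Relative to the lowest input coverage of each list, the input was 5.76 and 10.1 at 0 h, 43.5 in 24 h list 1 and 59.2 in 48 h list 1. The pull-down, on the same scale, was 25.1 (18.5 to 33.4) and 26.9 (19.5 to 36.3) at 0 h, 113 (98.9 to 129) at 24 h and 153 (134 to 173) at 48 h. Both later lists stood above both 0 h lists in input and in pull-down, with no overlap of the counting intervals of the pull-down. At the right summit, the strongest at 0 h, the input was 38.4 in 24 h list 1 and 50.8 in 48 h list 1. The pull-down there was 85.1 (73.0 to 98.8) and 138 (120 to 158). These are 2 lists at 0 h and 1 at each later time, selected by having a peak, so no test was made. The input is a background value from a library that is not named, so whether the Cd274 transcript rose was not tested. In bulk samples, a change in cells with the transcript and a change per cell cannot be told apart. Input at Cd274 in 24 h list 2 and 48 h list 2 is not known, because neither list holds a peak there.

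**Figure D2:**
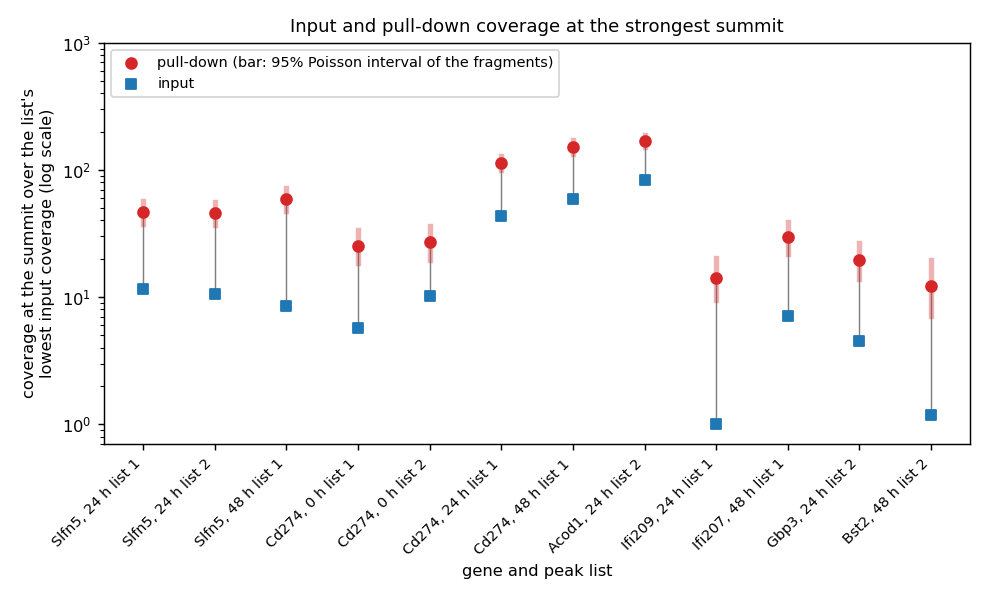
Input coverage (squares) and pull-down coverage (circles, with the 95% Poisson interval of the fragments) at the strongest summit of each member peak, divided by the lowest input coverage of its list, on a log axis. At Cd274 the input is 5.76 and 10.1 in the 0 h lists, 43.5 in 24 h list 1 and 59.2 in 48 h list 1, with the pull-down higher in the same lists, while at Ifi209 and Bst2 the input lies at 1.00 and 1.19.

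The Cd274 region had 2 summits in 3 of its 4 lists, 294 bases apart in 0 h list 1, 334 in 24 h list 1 and 340 in 48 h list 1. The left summits of these lists, at 29364199 to 29364218, lay within 19 bases of each other. The right summits, with the single one of 0 h list 2, lay within 84 bases of each other. In 0 h list 1 the right summit was stronger, at a −log10 p of 7.53 against 3.61 for the left one. In 24 h list 1 it was weaker, at 6.79 against 11.6 for the left one. In 48 h list 1 they were alike, at 11.7 for the right and 11.8 for the left. The fragments followed, with 47 at the right summit and 36 at the left in 0 h list 1 (95% Poisson intervals 34.5 to 62.5 and 25.2 to 49.8), 174 and 231 in 24 h list 1 (149 to 202 and 202 to 263), and 220 and 243 in 48 h list 1 (192 to 251 and 213 to 276). Of these 3 lists, only in 24 h list 1 did the intervals of the 2 summits not overlap, and they lay next to each other.

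**Figure D3:**
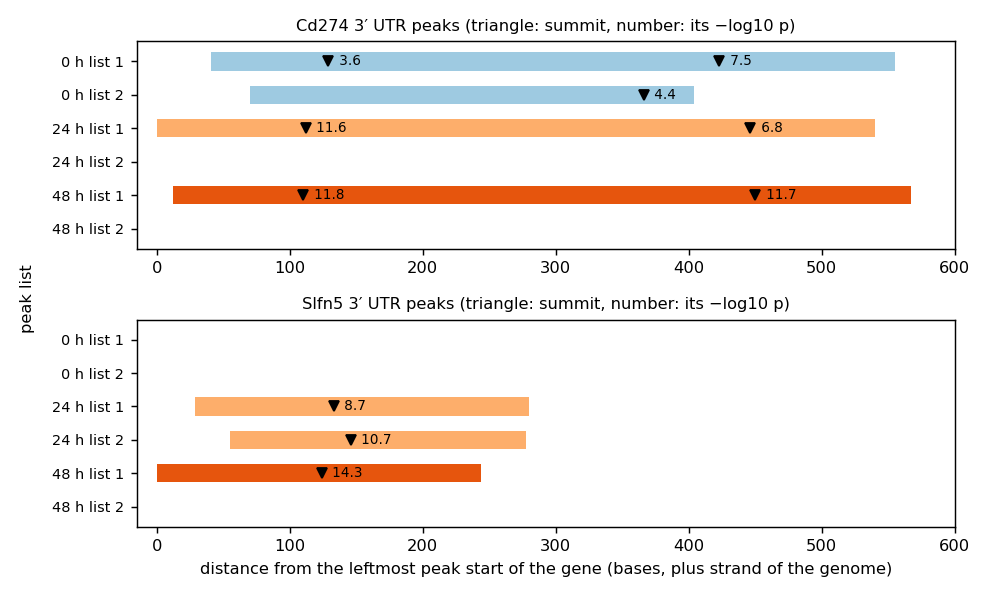
Peaks of Cd274 (upper panel) and Slfn5 (lower panel) in each list, as bars over the distance in bases from the leftmost peak start of the gene; triangles mark summits with their −log10 p. The Cd274 bars share 334 bases and the Slfn5 bars 189 bases, and lists with no peak are left blank.

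In rank the Cd274 peak stood at 401 of 1151 and 617 of 946 at 0 h, 77 of 725 in 24 h list 1 and 78 of 674 in 48 h list 1. The weakest of the 4, in 0 h list 2, had a −log10 q of 0.29. It lay just below the first 611 peaks of its list, the length of the shortest list. The same 4 lists and no others held a peak of 14 other protein-coding genes. Among the nearest were Iars, an aminoacyl-tRNA synthetase gene, at 31.9 percentile points, and Myadm at 53.6. Iars peaks lay in its 3′ UTR, with folds of 3.36 and 4.46 at 0 h, 6.83 in 24 h list 1 and 7.80 in 48 h list 1.

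Acod1 (ENSMUSG00000022126), the enzyme that makes itaconate from an intermediate of the citric acid cycle in activated macrophages, had 1 peak, in 24 h list 2. It spanned chromosome 14, 103292857 to 103293080, from the last exon into the 3′ UTR, with its summit 1042 bases before the annotated end of the 9596-base gene. Its fold of 1.99 was the lowest of the 12 member peaks and its 337 fragments (95% Poisson interval 302 to 375) were the most. The input coverage of 55.3, or 83.8 times the lowest of its list, was also the highest. The peak ranked 77 of 646 by p, at a −log10 p of 10.8. The gene had no peak in 24 h list 1, although 59.9% of the genes in the top 20% of a 24 h list had a peak in the other 24 h list. Cd274, in the top 20% of 24 h list 1, likewise had none in 24 h list 2, while Slfn5 was in the top 20% of both. Of genes in the top 20% of a 48 h list 62.1% had a peak in the other 48 h list, and Slfn5 and Cd274, which reached the top 20% of 48 h list 1, did not.

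Ifi209 and Ifi207 belong to the PYHIN family, the mouse p200 proteins, several of which bind foreign DNA. Ifi209 (ENSMUSG00000043263) had the only peak of the group at the start of a gene. It spanned chromosome 1, 173458459 to 173458691, in 24 h list 1, began 24 bases before the annotated gene start and had its summit 96 bases after it, in the 5′ UTR. Of all peaks, 3.07% had their centre in a 5′ UTR. Its fold of 5.96 was the highest of the 12, on 29 fragments (95% Poisson interval 19.4 to 41.6). The input coverage was 0.602, the lowest value of that list, so the fold rests on an input with no measurable coverage above the floor of the list. Its −log10 p was 7.78 and its rank 157 of 725.

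Ifi207 (ENSMUSG00000073490) had its peak in exon 5, at chromosome 1, 173556662 to 173556873, in 48 h list 1. The summit lay at 68.5% of the gene from its start. The fold was 3.41, the −log10 p 4.97 and the −log10 q 0.58, on 47 fragments (95% Poisson interval 34.5 to 62.5) over an input coverage of 3.33. Its rank was 359 of 674, close to the middle of the list. PYHIN genes of this cluster resemble each other in sequence, so reads can be shared between them. The gene is uncertain for Ifi207 and for Ifi209.

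Gbp3 (ENSMUSG00000028268) is a guanylate-binding protein gene, of the IFN-γ-induced GTPases that act on pathogens in vacuoles. Its 3′ UTR peak, at chromosome 3, 142278659 to 142278882, was found in 24 h list 2 and had its summit 199 bases before the end of the gene. The fold was 3.46, the −log10 p 4.79 and the −log10 q 0.43, on 39 fragments (95% Poisson interval 27.7 to 53.3) over an input coverage of 3.00. It ranked 308 of 646. Guanylate-binding protein genes are close copies of each other, so here too the gene is uncertain.

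Bst2 (ENSMUSG00000046718), tetherin, which holds budding viruses at the cell surface, had the weakest peak of the group. It lay in 48 h list 2 at chromosome 8, 71987108 to 71987329, with both edges in the 3′ UTR and the centre annotated as last intron. The fold was 3.77 on 17 fragments (95% Poisson interval 9.90 to 27.2) over an input coverage of 0.434, which is 1.19 times the lowest of the list. The −log10 p was 4.05 and q was 1. It was the only one of the 7 genes in 48 h list 2, the list of lowest input depth, and ranked 416 of 611.

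**Figure D4:**
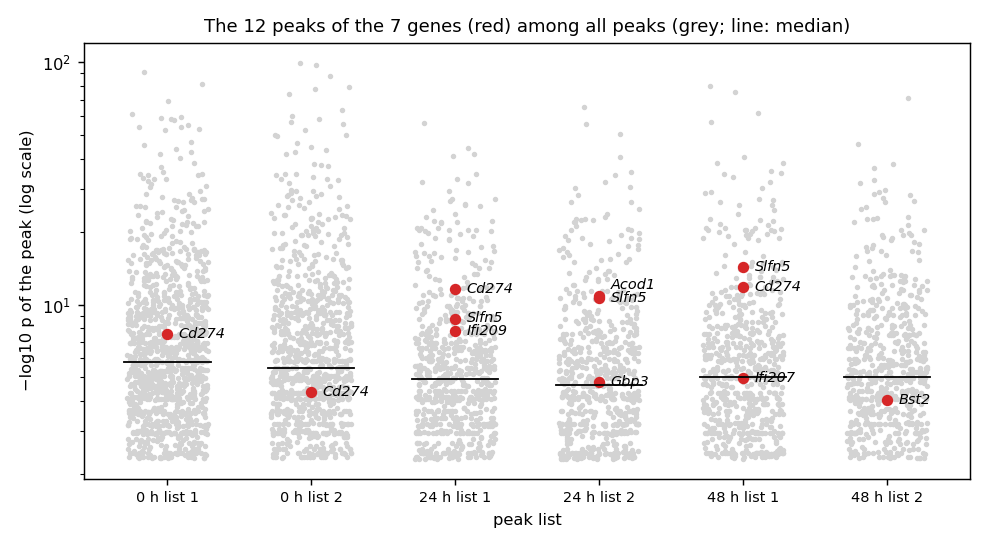
The −log10 p (log axis) of all peaks of each list (grey points, black line at the median) with the 12 peaks of the 7 genes in red. In the 24 h lists and in 48 h list 1 Slfn5, Cd274 and Acod1 lie well above the median, while Bst2, Ifi207 and the Cd274 peak of 0 h list 2 lie below it.

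Within their lists the member peaks ranged widely, from percentile 31.4 (Bst2) to 91.7 (Slfn5 in 48 h list 1), with a median of 80.4. A q of 0.05 or less was reached by 8 of 12: the 3 of Slfn5, 3 of Cd274, and those of Acod1 and Ifi209. Over the 6 lists 36.4% to 52.0% of all peaks reached it. By gene it was reached by 4 of 7, since the Slfn5 and Cd274 peaks recur over lists and are not independent. The median percentile counts the same recurring peaks. A fold of 4 or more was reached by 2 of 12, Slfn5 in 48 h list 1 and Ifi209. In the lists 18.9% to 28.3% of all peaks did. The weakest member peak, at a −log10 p of 4.05, lay above the lowest −log10 p of the 6 lists, which was at most 2.33. By place, 8 of 12 member peaks, 66.7% (95% exact binomial interval 34.9% to 90.1%), had their centre in a 3′ UTR, against 49.4% of all peaks. The other 4 were 1 each in a 5′ UTR (Ifi209), a last exon (Acod1), another exon (Ifi207) and an intron (Bst2), places that held 3.07%, 17.7%, 16.3% and 5.13% of all peaks. None lay outside genes, where 8.39% of all peaks did, but members were picked by an overlapping gene, which nearly fixes this. The shares over all peaks include those outside genes, so they are lower than shares over peaks in genes would be. The 3′ UTR and the last exon together held 9 of 12, beside 67.1% of all peaks. Because 7 of these 8 are the recurring Slfn5 and Cd274 places, they are not independent, and by gene the 3′ UTR was the place in 3 of 7. The median width of the member peaks was 238 bases.

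The wider set of interferon-induced genes includes the 7 genes above, which were picked for having a peak. The set was also chosen with earlier results of these data known, so its share is a description and was not tested. Of 88 such genes, 9 had a peak in any list, or 10.2%, beside 8.14% of the 21900 protein-coding genes in the RefSeq table. The 9 are the 7 genes above, Slfn2 and Ifitm2. None of the 7 immunity-related GTPases (IRG family) and none of the chemokines Cxcl9, Cxcl10 and Cxcl11 had a peak. Of the 11 guanylate-binding proteins 1 had one, of the 14 PYHIN genes 2, of the 7 Schlafen genes 2, of 40 antiviral genes 2, of the 2 checkpoint ligands 1 and of 4 metabolic enzymes 1. A gene with no peak is not shown to lack transcript or ac4C.

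Slfn2 (ENSMUSG00000072620) is a Schlafen gene that keeps T cells and monocytes quiescent in mice. It was the 1 interferon-induced gene of the set with a peak in all 6 lists. Of all genes with a peak, 3.13% had one in all 6 lists, as did 1.96% of all merged regions. The last-exon peak of Slfn2 lay 104 kb beyond that of Slfn5 on chromosome 11. It spanned 82960129 to 82960498 over the 6 lists, which shared 206 bases. Its fold in the 0 h lists was 2.73 and 2.79, in the 24 h lists 2.33 and 1.89, and in the 48 h lists 2.65 and 3.59. Relative to the lowest input coverage of each list the input there was 9.79 and 28.1 in the 0 h lists, 46.5 and 59.1 in the 24 h lists, and 17.1 and 16.7 in the 48 h lists. In both 24 h lists a second number of fragments matched the fold and p as well, so the input there is less certain. The same peak lies in intron 1 of the predicted gene Gm20234, and the lists give no strand, so its gene is uncertain. Ifitm2 (ENSMUSG00000060591), which blocks the entry of viruses, had a 3′ UTR peak in 24 h list 2 at a fold of 4.70 and a −log10 p of 8.45, which also lies in an intron of Gm45717.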

How the data were processed

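The 6 peak lists, 2 for each of 0, 24 and 48 h, were analysed; the 6 total RNA samples were not analysed here. The submitters' processing notes name MACS2 2.1.0, BWA 0.7.12 and build GRCm39, without settings. Fold enrichment is the authors' ratio at the summit, and p and q are the authors' deposited values as −log10, per the file headers. No list pools the samples of a time, as each time has 2. Coordinates are as deposited; a start can be off by 1 base.

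A gene had a peak when the authors' overlap column named it. A peak was 1 region, and its strength that of its best summit. With k fragments, 1 factor per list and input coverage b, fold is (k times the factor, plus 1) over (b plus 1). The p is the upper Poisson tail. The method was run on data simulated with this same formula, which does not test whether the peak caller used it. The simulated inputs were all above those at Ifi209 and Bst2. Regions were merged at an overlap of 1 base. The 7 genes and the list of 88 were chosen with earlier results of these data known. Named were the 7 genes, every other gene of the 88 with a peak, and the 3 genes nearest to Slfn5 and to Cd274 in percentile of p over the same lists, of which 1 is not reported here. RefSeq tables of GRCm38.p6 gave names, gene types and promoters; 94.4% of symbols matched. Python 3.11.15, pandas 2.3.3 and scipy 1.17.1 were used. Alternatives were stricter q and fold, equal list length, matched input coverage, exon placement, stricter overlap and leaving out each list.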

Additional observations from a re-analysis of the deposited data

How the results depend on the processing

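The count of genes per list depended on which peaks were counted. At a q of 0.05 or less the mean per list was 0.5, 2.5 and 1 at 0, 24 and 48 h. At a q of 1e-05 or less it was 0, 1.5 and 1 at 0, 24 and 48 h, and with folds from 4 upward 0, 0.5 and 0.5. At equal list length (611 peaks) it was 0.5, 3 and 2. Leaving out 1 list at a time gave 1 to 1 at 0 h, 3 to 3 at 24 h and 1 to 3 at 48 h, the lowest without 48 h list 1. The 12 pairs of gene and list fell to 8, 5 and 2 at these q and fold settings, where 46.6%, 20.3% and 25.2% of the pairs of all genes were kept, and to 9 to 11 when 1 list was left out. All 12 were kept at matched input coverage, beside 80.7% over all genes. The 12 pairs include the recurring Slfn5 and Cd274 places and are not independent. With genes assigned by exon or UTR, Bst2 had no peak. Slfn5 had 3 lists at a q of 0.05 or less, 2 at a q of 1e-05 or less and 1 at the fold of 4; Cd274 had 2 lists at a q of 1e-05 or less and 0 at the fold of 4. The number of interferon-induced genes with a peak, 9, was 3 with folds from 4 upward and 4 at the stricter q. The Slfn5 and Cd274 regions had 3 and 4 lists at an overlap of 50% of the shorter peak and with summits within 100 bases. With last exons added, 75% of member peaks lay in that place, beside 67.1% of all peaks, which include those outside genes. The cause of these changes was not tested. No paired analysis was possible because the lists carry no sample, so their numbers pair nothing. The limits are 2 lists per time, no level below the threshold, and 17 to 47 fragments at the weaker summits.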

Other observations

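Genes with an interferon term in the authors' annotation column made up a similar share of every list. A gene ontology term naming interferon was given to 56 of the 1833 annotated genes with a peak, 3.06%. The share was 3.06% and 3.42% in the 0 h lists, 3.30% and 4.05% in the 24 h lists, and 2.81% and 3.35% in the 48 h lists. Of the 7 effector genes, 5 carry such a term, and Slfn5 and Acod1 do not. Gbp3 and Bst2 carry a term for a response to IFN-γ. The terms of Ifi209 and Ifi207 name interferon-β, and that of Cd274 names negative regulation of IFN-γ production. Whether the genes with a term naming interferon are induced here was not tested. Those with a peak in all 6 lists were Actr2 and Actr3, subunits of the actin-branching ARP complex, and Stxbp3, a regulator of vesicle fusion. Of all genes with a peak, 3.13% had one in all 6 lists. The chemokine gene Ccl9 and the inhibitory receptor gene Sirpa were each in 5 lists, Cxcl16 in 4 and Tnf in 2. App and Kif5b were also in 5 lists, and Stx4a, Syncrip and Tpr also in 4. Others, such as Irf1, were in 1 list.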
